A study of Homo sapiens with 8 samples.

Results

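The mucin family was represented by 8 genes, MUC1, MUC2, MUC4, MUC5AC, MUC5B, MUC13, MUC16 and MUC20, taken by name from a table of 62649 genes, and all 8 were found. They were measured by RNA sequencing in spheroids of AsPC-1 and PANC-1, established lines from human pancreatic cancers, both given as WT. After 3 days of spheroid culture in methylcellulose the cells received, for 24 h, the vehicle, 10 µM roseoflavin, 1 nM trametinib or both compounds (the combination). Roseoflavin, a natural product, resembles the vitamin riboflavin, and trametinib inhibits the MEK kinases upstream of ERK. Each treatment of each line was 1 library, 4 libraries per line, so the lines are kept apart below and a spread within a line includes its treatments. Nothing in the labels says whether the libraries came from separate cultures. No group has a replicate, so the p-values measure only the spread of these libraries around the fitted models, which may be technical. Each line is 1 established line, and differences between them are those of 2 lines, not of 2 classes of tumour.

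Mucins are large proteins whose long repeats of serine, threonine and proline carry dense O-linked sugars. Gel-forming mucins are secreted and linked into a mesh that makes up mucus, whereas membrane-bound mucins stay on the apical surface of epithelial cells, where they shield the cell and take part in signalling through short tails inside the cell. The normal pancreatic duct makes little mucin, and ductal adenocarcinomas and their precursors are known for making several, with MUC1, MUC4 and MUC5AC among those used by pathologists. MUC1, MUC4, MUC13, MUC16 and MUC20 are membrane-bound, and MUC2, MUC5AC and MUC5B form gels.

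The results below turn on MUC1 and MUC13, the only members above 10 TPM in any library, and MUC4 is a member at a low level. Their promoters are therefore shown, as the 250 bases before a RefSeq transcription start (GRCh38.p14), 5′ to 3′ in the direction of the gene. All 3 genes lie on the minus strand, and the windows are chr1:155192916-155193165 for MUC1, chr3:124934752-124935001 for MUC13 and chr3:195811930-195812179 for MUC4. The MUC13 and MUC4 starts used here, and their windows, lie inside the longer GENCODE genes. Capitals mark matches to 7 motifs, each searched on both strands. The AP-1 motif, bound by the FOS and JUN factors, was searched as TGANTCA. For the GC box, bound by factors of the SP and KLF families, the letters were GGGCGG. The TATA box, which places the start of transcription, was searched as TATAAA. An E-box bound by the ZEB and Snail repressors was searched as CACCTG. Motifs of the FOXA factors (TGTTTAC) and of the GATA factors (AGATAA) had no match in these windows. The last motif was that of the STAT factors, TTCNNNGAA.
MUC1: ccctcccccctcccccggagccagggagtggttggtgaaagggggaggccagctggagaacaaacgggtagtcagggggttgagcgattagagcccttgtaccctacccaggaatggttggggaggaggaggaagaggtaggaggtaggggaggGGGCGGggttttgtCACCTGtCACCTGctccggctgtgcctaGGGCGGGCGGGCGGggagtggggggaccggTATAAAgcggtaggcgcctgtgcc
MUC13: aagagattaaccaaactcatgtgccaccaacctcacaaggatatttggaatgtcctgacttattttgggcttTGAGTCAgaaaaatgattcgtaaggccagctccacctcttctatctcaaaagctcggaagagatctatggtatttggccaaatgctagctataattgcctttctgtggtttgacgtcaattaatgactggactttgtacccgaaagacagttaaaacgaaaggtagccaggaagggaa
MUC4: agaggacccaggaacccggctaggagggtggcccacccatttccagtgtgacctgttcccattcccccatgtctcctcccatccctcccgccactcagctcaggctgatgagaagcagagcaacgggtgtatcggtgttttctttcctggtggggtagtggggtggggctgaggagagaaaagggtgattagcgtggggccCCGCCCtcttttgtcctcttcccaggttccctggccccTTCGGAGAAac

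The MUC1 window was 66.0% G and C and held 4 GC boxes, 3 of them overlapping, 2 CACCTG E-boxes and a TATA box that began 24 bases before the start. The MUC13 window was 41.6% G and C and held no GC box, no TATA box of these letters and 1 AP-1 match, TGAGTCA, which began 178 bases before the start. The MUC4 window was 60.4% G and C and held 1 GC box and 1 STAT match. Of 35116 windows of the same length in the RefSeq table, 42.6% held a GC box, 17.5% the E-box, 10.7% the TATA box, 6.57% the AP-1 motif and 6.57% the STAT motif. A match is a description of the letters and says nothing of binding in these cells. Of the 8 members, 5 had an entry in the promoter table, and an AP-1 match was also in the MUC2 window and in the window of 1 of the 2 MUC16 starts.

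MUC1 and MUC13 made up most of the summed level of the 8 members in AsPC-1, and MUC1 did so in PANC-1. Levels are given in TPM, which is scaled by gene length and so allows an approximate comparison between genes. The handling of reads shared by overlapping genes is not given, and its part in the order of the members was not tested. In AsPC-1 the summed level of the 8 members was between 393 and 611 TPM, and in PANC-1 between 48.2 and 53.5 TPM. MUC1 and MUC13 together made up 97.7% to 98.2% of that sum in AsPC-1, and in PANC-1 MUC1 alone made up 97.4% to 98.0%. All 4 AsPC-1 libraries had at least 1 TPM of 4 of the 5 membrane-bound members and 1 of the 3 gel-forming members, and all 4 PANC-1 libraries had it of MUC1 only.

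**Figure D1:**
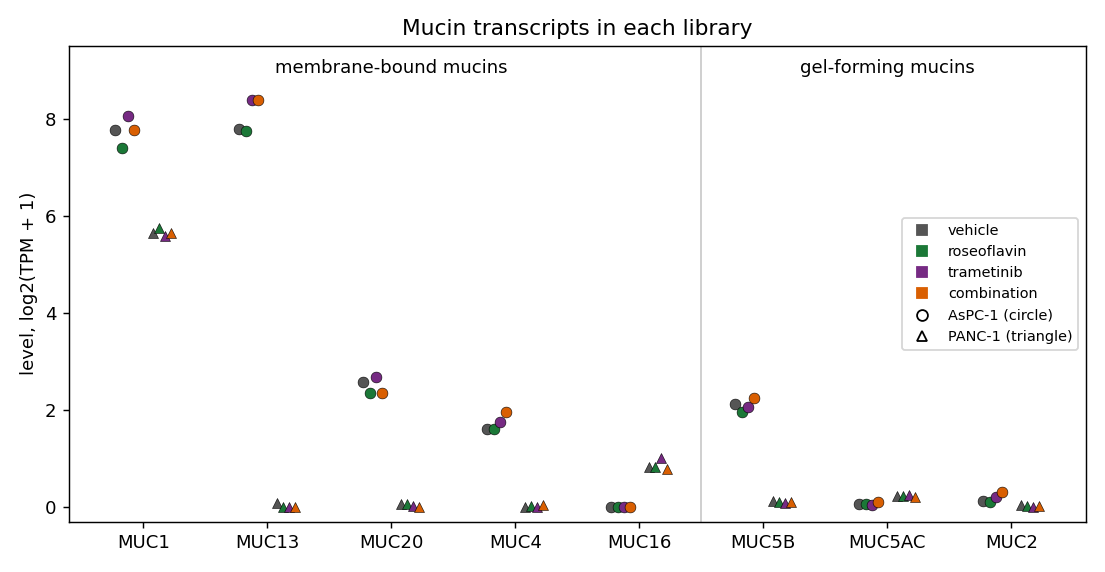
Level of each mucin, as log2(TPM + 1), in each of the 8 libraries, with circles for AsPC-1, triangles for PANC-1 and colours for the treatment. MUC1 is the only member well above 0 in both lines (46.97 TPM or more in every library), MUC13 is high in AsPC-1 and at 0.064 TPM or less in PANC-1, and MUC16 is above 0 in PANC-1 only.

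MUC1 encodes a transmembrane mucin that is cleaved into a long extracellular part and a part with a tail inside the cell (ENSG00000185499, chromosome 1, 155185824 to 155192916, minus strand, GENCODE release 29 on GRCh38). In AsPC-1 it was at 217 TPM with vehicle, 169 TPM with roseoflavin, 267 TPM with trametinib and 218 TPM with the combination. In PANC-1 it was at 49.0 TPM with vehicle, 52.4 TPM with roseoflavin, 47.0 TPM with trametinib and 49.0 TPM with the combination. In bulk RNA, fewer cells of a type and less RNA per cell cannot be told apart, here and below. The lines did not overlap, as was the case for 79.2% of all genes tested below. The mean over treatments was 4.41-fold higher in AsPC-1 (218 ± 40.1 TPM) than in PANC-1 (49.3 ± 2.28 TPM, SD, n = 4 libraries each).

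MUC13 encodes a transmembrane mucin with EGF-like domains, known from the lining of the gut (ENSG00000173702, chromosome 3, 124905442 to 124953819, minus strand). In AsPC-1 it was at 221 TPM with vehicle, 215 TPM with roseoflavin, 333 TPM with trametinib and 334 TPM with the combination. In PANC-1 it was at 0.064 TPM with vehicle and listed at 0 in the other 3 libraries, so no fold between the lines is given. MUC13 was thus at about the level of MUC1 in AsPC-1 and near or at 0 in PANC-1. The ratio of MUC13 to MUC1 in AsPC-1 was 1.02 with vehicle, 1.28 with roseoflavin, 1.25 with trametinib and 1.53 with the combination.

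MUC20 and MUC4 lie next to each other on chromosome 3, on opposite strands and 5641 bp apart. MUC20 (ENSG00000176945, 195720882 to 195741123, plus strand) encodes a small membrane mucin reported to associate with the receptor MET. In AsPC-1 it was at 4.93 TPM with vehicle, 4.10 TPM with roseoflavin, 5.38 TPM with trametinib and 4.13 TPM with the combination, and in PANC-1 at 0.049, 0.045, 0.021 TPM and a listed 0 in the same order. MUC4 (ENSG00000145113, 195746765 to 195812277, minus strand) encodes a large membrane mucin that can act as a partner of the receptor ERBB2. In AsPC-1 it was at 2.03 TPM with vehicle, 2.04 TPM with roseoflavin, 2.36 TPM with trametinib and 2.87 TPM with the combination, and in PANC-1 at 0.005, 0.015, a listed 0 and 0.035 TPM. Both neighbours were therefore low but present in AsPC-1 and close to 0 in PANC-1.

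The value of MUC20 is uncertain, because 42.8% of its exon bases are also exon bases of MUC20-OT1, a noncoding gene on the same strand, and a pseudogene copy, MUC20P1, lies upstream on the same strand. MUC20-OT1 was at 7.72 to 9.37 TPM in AsPC-1 and 2.47 to 2.82 TPM in PANC-1. MUC20P1 was at 4.601 to 6.82 TPM in AsPC-1 and between a listed 0 and 0.176 TPM in PANC-1. All 3 genes had lower values in PANC-1, and a splitting of reads between them was not tested.

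MUC16 encodes the very large membrane mucin that carries the CA125 antigen and binds mesothelin (ENSG00000181143, chromosome 19, 8848844 to 8981342, minus strand). None of it was found in AsPC-1, where each of the 4 libraries lists 0. In PANC-1 it was at 0.780 TPM with vehicle, 0.768 TPM with roseoflavin, 1.00 TPM with trametinib and 0.726 TPM with the combination. It was the second most abundant member in PANC-1, far below MUC1, and it was not tested because only 1 library reached 1 TPM.

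The gel-forming members lie in a cluster on chromosome 11, all on the plus strand, MUC2 (ENSG00000198788) at 1074875 to 1110511, MUC5AC (ENSG00000215182) at 1157953 to 1201138 and MUC5B (ENSG00000117983) at 1223066 to 1262172. MUC5B, a mucin of airway and salivary mucus, was at 3.34, 2.92, 3.16 and 3.78 TPM in AsPC-1 with vehicle, roseoflavin, trametinib and the combination, and at 0.096, 0.078, 0.054 and 0.072 TPM in PANC-1. Its mean was 44.0-fold higher in AsPC-1. MUC2, the main mucin of the intestine, was at 0.094, 0.070, 0.155 and 0.237 TPM in AsPC-1, and at 0.035, 0.016, a listed 0 and 0.012 TPM in PANC-1. MUC5AC, the mucin of the stomach surface that is often made by pancreatic cancers, was at 0.051, 0.051, 0.031 and 0.074 TPM in AsPC-1 and at 0.172, 0.166, 0.181 and 0.153 TPM in PANC-1. MUC5AC and MUC16 were the 2 members with higher values in PANC-1, both under about 1 TPM. MUC2 and MUC5AC were below 1 TPM in every library and were not tested. In AsPC-1 MUC5B stood above both, and in PANC-1 all 3 genes of the cluster were at 0.181 TPM or less.

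Ordered by mean level, AsPC-1 had MUC13, MUC1, MUC20, MUC5B, MUC4, MUC2, MUC5AC and MUC16. The ranges over libraries of MUC13 and MUC1 overlapped, as did those of MUC2 and MUC5AC, and the other neighbours in that order did not overlap. In PANC-1 the order was MUC1, MUC16, MUC5AC, MUC5B, MUC20, MUC13, MUC2 and MUC4. There the 4 lowest members overlapped with their neighbours, and the higher ones did not.

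The first comparison asked how the lines differed. Of the 8 members, 5 passed the filter of at least 1 TPM in 2 libraries, each of them through AsPC-1 or both lines, so 4 of the 5 (MUC4, MUC5B, MUC13 and MUC20) had to differ to be tested. All 5 were lower in PANC-1 by limma at an adjusted p under 0.05, where 21.5% of the 19122 genes tested were called lower. For those 4 the filter had set the direction, so the count and their p-values are no evidence about the family. MUC5AC and MUC16, which had higher values in PANC-1, were not tested. The difference, PANC-1 minus AsPC-1 on the log2(TPM + 1) scale, was -2.10 for MUC1 (SE 0.119, adjusted p 4.18e-06) and -8.06 for MUC13 (SE 0.136, adjusted p 1.89e-08). For MUC20 it was -2.45, for MUC5B -2.00 and for MUC4 -1.71. The median over the tested members was -2.10, against 0.55 over all genes tested, with the same limit. With a pseudocount of 0.1 the differences of MUC20, MUC5B and MUC4 were -5.21, -4.28 and -4.41, since a pseudocount of 1 compresses levels of a few TPM.

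The mitochondrial share of TPM was 41.2% to 44.1% for AsPC-1 and 22.8% to 25.6% for PANC-1, and the common total lowers the other genes in AsPC-1. Of the calls between the lines, 74.4% were higher in PANC-1 as deposited, 60.9% after rescaling without mitochondrial genes and 52.6% after quantile normalization, and the median over all genes was 0.55, 0.22 and 0.04 in the same order. The mucin differences kept their sign and were larger in size under both scalings, with MUC1 at -2.50 under each.

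Of the 14 other mucin and mucin-like genes, 4 passed the filter and 3 were lower in PANC-1, against 21.5% of all tested genes. MUC17 and OVGP1 reached 1 TPM in AsPC-1 only, so these genes had to be lower in PANC-1 to be tested. MUC17, a membrane-bound mucin of the gut, was at 64.4 TPM with vehicle, 64.0 TPM with roseoflavin, 72.1 TPM with trametinib and 79.2 TPM with the combination in AsPC-1, and at 0.023 TPM or less in PANC-1 (difference -6.13, SE 0.0672, adjusted p 3.65e-09). In level, MUC17 came after MUC13, MUC1 and the mucin-like CD164 in AsPC-1. MUC3A, of the same cluster on chromosome 7, was at 8.72 to 11.0 TPM in AsPC-1 and 4.83 to 5.26 TPM in PANC-1 (difference -0.87), and OVGP1, a mucin-like secreted protein of the oviduct, at 1.67 to 2.08 and 0.228 to 0.699 TPM (difference -0.96). CD164, a small sialomucin, was at 152 to 201 and 174 to 185 TPM and was not called (0.07). Under quantile normalization and after rescaling without mitochondrial genes it was called lower (-0.27 and -0.32, adjusted p 0.0115 and 0.00736 by limma), which makes 4 of 4 lower.

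The enzymes that attach and build the O-linked sugars differed between the lines in both directions. The GALNT enzymes add the first sugar, and of 17 listed genes 11 were tested, 8 higher and 3 lower in PANC-1, where 62.3% of all tested genes were called higher and 21.5% lower (median 1.44, all genes 0.55). The count of higher enzymes is thus near the share over all genes. In this list and those below, a gene under 1 TPM in all libraries of a line had to be higher in the other line to be tested. GALNT18 was at 0.03 TPM or less in AsPC-1 and 20.3 to 24.4 TPM in PANC-1, GALNT10 at 1.08 to 1.23 and 29.3 to 31.8 TPM, and GALNT2 at 21.7 to 23.6 and 129 to 136 TPM. In the other direction GALNT5 was at 55.4 to 58.8 TPM in AsPC-1 and 0.047 to 0.108 TPM in PANC-1, GALNT4 at 33.9 to 46.3 and 5.15 to 6.80 TPM, and GALNT12 at 17.7 to 20.7 and 7.30 to 9.11 TPM. The lines thus differed in which initiating enzymes were high.

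Of 20 enzymes that extend or cap the sugars, 15 were tested, 9 lower, 4 higher and 2 not called (median -1.25). The shares over all tested genes were 21.5% lower and 62.3% higher. GCNT3, which makes the branched core found on mucus-type mucins, was at 172 to 201 TPM in AsPC-1 and at 0.069 TPM or less in PANC-1. B3GNT3 was at 84.4 to 91.6 and 0.311 to 0.486 TPM, and B3GALT5 at 28.6 to 35.4 and 0.008 TPM or less. The rises were those of ST6GALNAC2, a sialyltransferase, from 0.515 to 1.53 TPM in AsPC-1 to 23.2 to 25.1 TPM in PANC-1, of B3GNT6, listed at 0 in AsPC-1 and at 1.80 to 2.12 TPM in PANC-1, and of ST3GAL2, at 11.0 to 12.8 and 25.98 to 28.4 TPM. ST6GALNAC4 was also called higher as deposited (0.21), and its difference was negative under both other scalings. ST3GAL4 and C1GALT1C1, not called as deposited (0.07 each), were called lower under both, so that 12 genes of the list were lower under each.

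Genes of mucus packaging and goblet cells were mostly lower in PANC-1, where 21.5% of all tested genes were called lower and 62.3% higher. Of 20 listed genes 18 were tested, 14 lower, 3 higher and 1 not called (median -1.41). The trefoil peptides, secreted along with mucins, were among the lower ones, with TFF2 at 25.1 to 44.0 TPM in AsPC-1 and 0.296 TPM or less in PANC-1, TFF1 at 15.04 to 16.8 and 0.453 to 0.842 TPM, and TFF3 at 23.3 to 41.4 and 1.69 to 4.36 TPM. SPDEF, a goblet cell transcription factor, and SYTL2, of the secretory granule, were called higher as deposited (0.41 and 0.36), both under the median of all genes. They were at -0.17 and -0.17 after quantile normalization and at 0.10 and -0.0013 after rescaling without mitochondrial genes, so neither was called higher under those scalings. CREB3L4, a transcription factor of secretory cells, was not called as deposited (0.08) and was called lower under both (-0.46 and -0.29).

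Sheddases and binding partners were mixed, with 8 lower, 4 higher and 1 not called of 13 tested (median -0.49). Over all tested genes 21.5% were called lower and 62.3% higher. Under both other scalings the list had 9 lower and 3 higher. ADAM10, a sheddase, was at 0.55 as deposited and at 0.03 and 0.17 under those scalings, where it was not called, and MMP14, a membrane-bound protease, turned from 0.10, not called, to -0.35 and -0.29, called lower. MSLN, the mesothelin that binds MUC16, was at 197 to 222 TPM in AsPC-1, where MUC16 was listed at 0, and at 3.12 to 3.53 TPM in PANC-1, where MUC16 was detected. ERBB3, a receptor of the EGF family, was at 125 to 141 and 0.333 to 0.455 TPM, and MET at 180 to 192 and 43.9 to 47.5 TPM. ICAM1, an adhesion molecule that binds MUC1, was at 1.43 to 1.90 TPM in AsPC-1 and 295 to 365 TPM in PANC-1. ADAM17, a protease that can release the MUC1 ectodomain, was at 5.73 to 6.28 and 13.5 to 17.4 TPM, and GRB2, an adaptor that can bind the MUC1 tail, at 48.1 to 52.2 and 111 to 116 TPM.

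Transcription factors that act on mucin genes were split, with 11 lower and 7 higher of 18 tested (median -2.62). Among all tested genes 21.5% were called lower and 62.3% higher. With quantile normalization 5 of the factors were higher, since NFKB1 (0.50 as deposited) and NR3C1 (0.52) were at -0.06 and -0.0084 and not called. With rescaling 6 were higher, and NFKB1 was at 0.16 and not called. KLF5, a factor of gut and ductal epithelium, was at 188 to 227 TPM in AsPC-1 and 1.15 to 1.30 TPM in PANC-1. EHF, an epithelial ETS factor, was at 86.1 to 95.7 and 0.156 to 0.260 TPM, and HNF4A, a factor of gut and liver, at 35.2 to 39.4 and 0.051 TPM or less. FOXA2, a factor of endoderm, showed the reverse, at 0.073 TPM or less in AsPC-1 and 41.4 to 51.8 TPM in PANC-1. STAT3 was at 10.1 to 11.4 and 98.8 to 104 TPM, and GATA4 at 4.58 to 5.18 and 15.8 to 18.6 TPM.

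**Figure D2:**
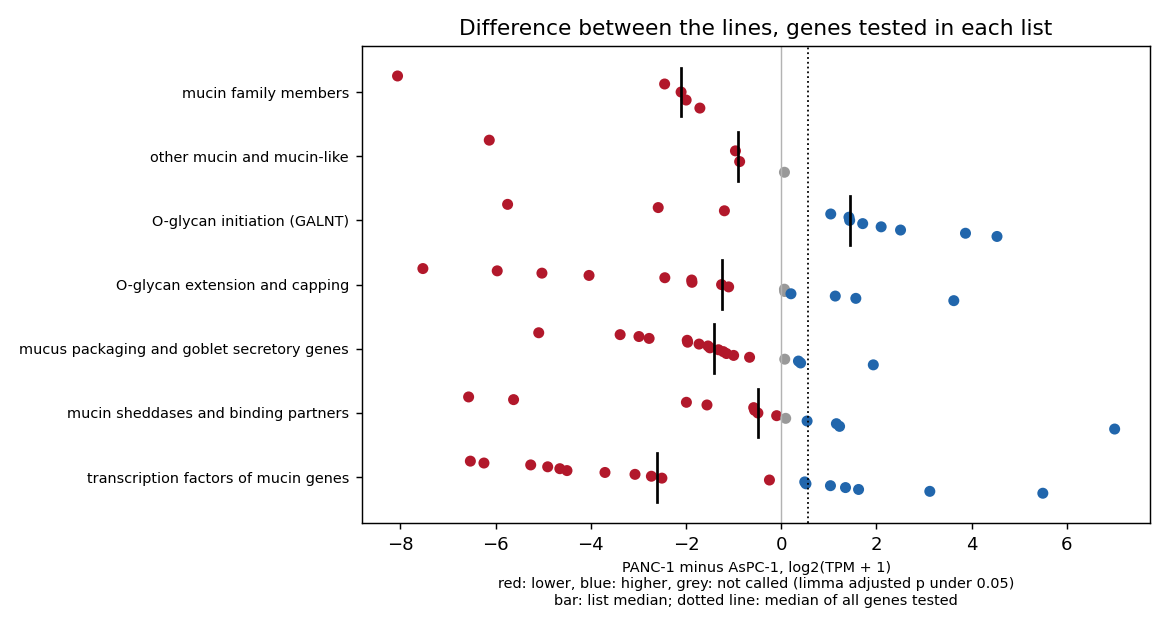
Difference between the lines, PANC-1 minus AsPC-1 on the log2(TPM + 1) scale, for the tested genes of the mucin family and 6 lists; each point is a gene, red where lower and blue where higher by limma, bars are list medians and the dotted line is the median of all genes (0.55). All 5 tested mucins lie below 0, and MUC4, MUC5B, MUC13 and MUC20 passed the filter through AsPC-1 only. The GALNT enzymes have a median of 1.44, and the other lists have medians from -2.62 to -0.49.

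Epithelial markers moved with the mucins, with 9 of 9 tested lower in PANC-1, where 21.5% of all tested genes were called lower. Their summed level was 9742 to 11231 TPM in AsPC-1 and 2876 to 3184 TPM in PANC-1. Of 7 mesenchymal markers tested, 6 were higher in PANC-1, against 62.3% of all tested genes. SNAI2 was lower, at 13.6 to 15.7 TPM in AsPC-1 and 0.252 to 0.406 TPM in PANC-1. ZEB2, FN1 and TWIST1 were under 1 TPM in every library. The mesenchymal sums, 758 to 926 and 4133 to 4395 TPM, were mostly VIM, at 660 to 816 and 3132 to 3391 TPM. The part of these marker sets in the mucin difference was not tested. Of the immune markers, CD3E and MS4A1 were listed at 0 in every library and PTPRC was at 0.019 TPM or less. CD68, a lysosomal protein of macrophages that other cells also make, was at 108 to 114 TPM in AsPC-1 and 120 to 139 TPM in PANC-1, called higher as deposited (0.23) and lower under both other scalings. CD14 was at 3.30 to 4.10 and 0.473 to 1.62 TPM. The immune sum of 1969 to 2085 TPM in AsPC-1 came mostly from LYZ and that of 121 to 140 TPM in PANC-1 mostly from CD68. The fibroblast sum was 103 to 146 TPM in AsPC-1, mostly LUM, and 101 to 110 TPM in PANC-1, mostly COL1A1, and all 6 endothelial markers were under 1 TPM in every library.

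The next comparison asked what each compound did within each line. In AsPC-1 the values of MUC13 and MUC1 were higher in both libraries with trametinib than in their matched libraries without it, but no gene passed the adjusted threshold. DUSP6, an ERK-driven phosphatase used as a check of trametinib, was at 193 TPM with vehicle and 155 TPM with trametinib in AsPC-1, and at 18.6 and 14.0 TPM in PANC-1. Its fitted difference was -0.34 and -0.42, and it was not called in either line (adjusted p 0.271 and 0.474 by limma). Of the 15 MAPK output genes listed with it, 0 were called for trametinib, 5 had positive differences in AsPC-1 (median -0.11) and 2 in PANC-1 (median -0.10), and 6 and 4 had an unadjusted p under 0.05 by limma. Over all tested genes, 56.7% had positive differences in AsPC-1 and 55.5% in PANC-1. The shares with an unadjusted p under 0.05 by limma were 14.1% and 4.81%.

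MUC13 had the larger difference with trametinib in AsPC-1. Its value was 51.0% higher with trametinib than with vehicle, and 55.3% higher with the combination than with roseoflavin. The difference in the fitted model was 0.61 on the log2(TPM + 1) scale (SE 0.0496, interval of 95% from 0.47 to 0.75) and did not pass by limma (adjusted p 0.271, unadjusted p 0.000289). Of the 7999 genes that averaged 10 TPM or more in AsPC-1, 19 had a larger positive difference, which is 0.238% of them. Epithelial markers had positive differences with trametinib in AsPC-1 in 9 of 9 tested genes (median 0.14, 4 at an unadjusted p under 0.05 by limma and 0 called). Among all tested genes 56.7% had positive differences and 14.1% had an unadjusted p under 0.05 by limma. The part of the epithelial markers in the value of MUC13 was not tested.

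MUC1 was 23.2% higher with trametinib than with vehicle and 29.4% higher with the combination than with roseoflavin in AsPC-1. The fitted difference was 0.34 (SE 0.0392, interval of 95% from 0.23 to 0.45, adjusted p 0.271 and unadjusted p 0.00115 by limma). In PANC-1 the same 2 comparisons gave -4.07% and -6.63% for MUC1, with a fitted difference of -0.08 (SE 0.0392, adjusted p 1). The values thus lay in opposite directions in the lines, with a small difference in PANC-1.

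Of the other members tested, MUC4 was 16.0% higher with trametinib than with vehicle and 40.6% higher with the combination than with roseoflavin in AsPC-1 (fitted 0.25, SE 0.112, adjusted p 0.428). MUC5B differed by -5.57% and 29.6% in the same comparisons (fitted 0.11, SE 0.128, adjusted p 0.765), so its direction was not the same in both. MUC20 was 9.13% and 0.756% higher (fitted 0.06, SE 0.0894, adjusted p 0.847). By limma 0 of the 5 members were called for trametinib in AsPC-1, with 0% of all genes called. At an unadjusted p under 0.05 there were 2 of 5 members, MUC1 and MUC13, and 2691 of 19122 genes. The median over the members was 0.25, against 0.02 over all genes. MUC17, outside the family list, had a fitted difference of 0.23 (SE 0.0637, adjusted p 0.311).

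Past 1.5-fold on the log2(TPM + 1) scale, with 1 library against 1 and no test, MUC13 was the only 1 of the 5 tested members to be higher in AsPC-1 with trametinib over vehicle, where 2.26% of genes were. The same held for the combination over roseoflavin (3.10% of genes) and the combination over vehicle (2.12% of genes), 2 comparisons that share libraries with the first. In AsPC-1 with roseoflavin over vehicle 0 of 5 members were past 1.5-fold in either direction, where 5.78% of genes were. In PANC-1 there were 0 of 5 with roseoflavin (5.73% of genes), trametinib (5.82%) and the combination (6.38%) over vehicle. All members tested but MUC1 were at 0.096 TPM or less there, too low to pass 1.5-fold on this scale. The count in PANC-1 therefore speaks of MUC1 only.

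**Figure D3:**
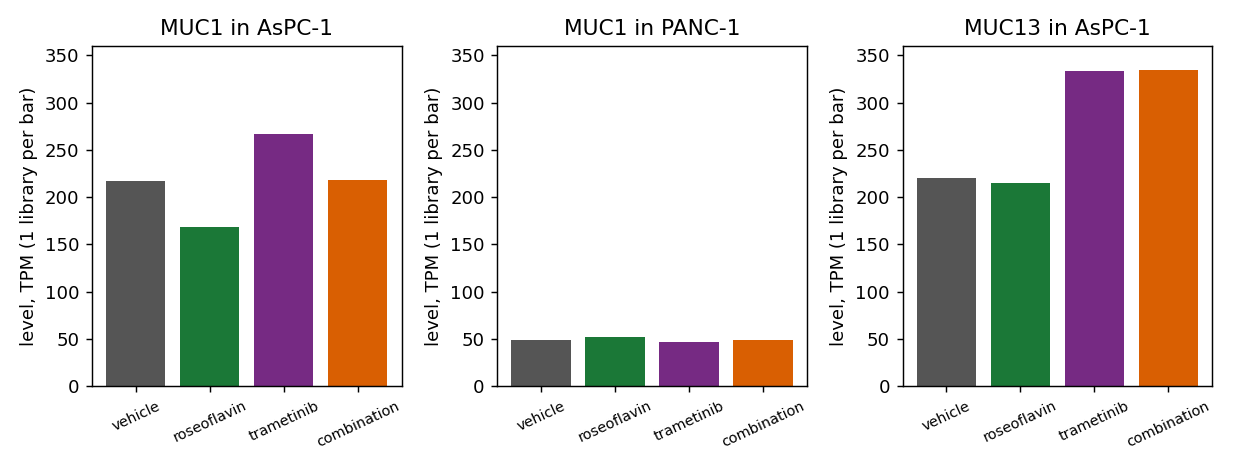
Level in TPM, on a linear axis from 0, of MUC1 in both lines and of MUC13 in AsPC-1, with 1 library per bar. In AsPC-1 MUC13 stands at 333 and 334 TPM in the libraries with trametinib and at 221 and 215 TPM without it, MUC1 runs from 169 TPM with roseoflavin to 267 TPM with trametinib, and MUC1 in PANC-1 stays between 47.0 and 52.4 TPM.

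Roseoflavin went with a lower value of MUC1 in AsPC-1. MUC1 differed there by -22.1% between roseoflavin and vehicle and by -18.2% between the combination and trametinib. The fitted difference was -0.32 (SE 0.0392, interval of 95% from -0.43 to -0.21) and did not pass by limma (adjusted p 0.355, unadjusted p 0.00131). Of the same 7999 genes, 234 had a more negative difference, which is 2.93%. The mitochondrial share was 44.1% in the roseoflavin library and 41.2% with vehicle, and after rescaling without those genes the MUC1 difference was -0.30. In PANC-1 MUC1 was 7.11% and 4.25% higher in the same comparisons (fitted 0.08, SE 0.0392, adjusted p 0.549).

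MUC13 differed little with roseoflavin in AsPC-1, at -2.43% from vehicle and 0.32% higher on top of trametinib. Its fitted difference was -0.02, with an interval of 95% from -0.15 to 0.12, and it turned sign under both other scalings. MUC20 differed by -16.7% and -23.1% (fitted -0.26, SE 0.0894, adjusted p 0.428). MUC4 was 0.64% and 21.9% higher, and MUC5B differed by -12.8% and 19.7%.

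Of the 5 members 0 were called for roseoflavin in AsPC-1, with 0% of all genes called, and at an unadjusted p under 0.05 there were 2, MUC1 and MUC20, and 2163 genes. In PANC-1 0 of 5 members were called for either compound, with 0% of all genes called each time, and 0 members had an unadjusted p under 0.05 (2074 genes for roseoflavin and 919 for trametinib). There MUC4, MUC5B, MUC13 and MUC20 were at 0.096 TPM or less, so only MUC1 had a level at which a difference could be read.

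With both compounds, MUC1 in AsPC-1 was 0.80% above vehicle, between the lower value with roseoflavin and the higher value with trametinib. MUC13 with both compounds was 51.5% above vehicle, as with trametinib alone. MUC4 was 41.5% above, MUC5B 13.0% above and MUC20 at -16.1% from vehicle, at levels of a few TPM.

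**Figure D4:**
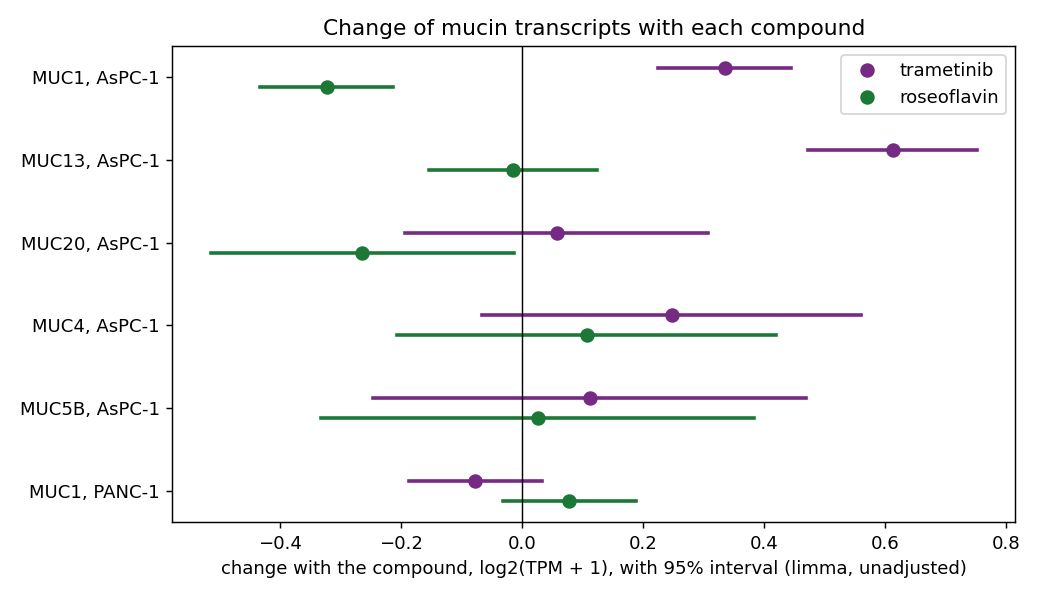
Fitted difference with trametinib (purple) and roseoflavin (green) on the log2(TPM + 1) scale, with unadjusted intervals of 95% from limma, for the 5 tested members in AsPC-1 and MUC1 in PANC-1. MUC1 in AsPC-1 lies at 0.34 with trametinib and -0.32 with roseoflavin, MUC13 at 0.61 and -0.02, and none passed the adjusted threshold.

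Whether the lines differed in their response was tested directly. For MUC1 the difference PANC-1 minus AsPC-1 was 0.40 for roseoflavin (SE 0.0554, adjusted p 0.336, unadjusted p 0.00213) and -0.41 for trametinib (SE 0.0554, adjusted p 0.493, unadjusted p 0.00192), and neither passed by limma. Of the 5 members 0 were called for either compound, with 0% of all genes called. At an unadjusted p under 0.05 there was 1 member for roseoflavin (2227 genes) and there were 2 for trametinib, MUC1 and MUC13 (1854 genes). MUC13 was listed at 0 in 3 PANC-1 libraries, so its own difference between lines only restates AsPC-1.

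Over both lines together, 0 of 5 members were called by limma for roseoflavin or trametinib, with 0% of all genes called. At an unadjusted p under 0.05 there were 0 members for either compound, and 1358 and 938 genes. MUC1 had a fitted difference of -0.12 (SE 0.119) for roseoflavin and 0.13 (SE 0.119) for trametinib, and MUC13 -0.03 (SE 0.136) and 0.28 (SE 0.136). Leaving out 1 library moved MUC1 to between -0.23 and -0.01 for roseoflavin and between 0.02 and 0.24 for trametinib. The values nearest 0 came without the AsPC-1 roseoflavin library and the largest without the PANC-1 roseoflavin library. These pooled values average an AsPC-1 difference with one in PANC-1 that was small or of the opposite sign.

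The lists of related genes gave 0 calls for either compound in either line by limma. For trametinib in AsPC-1 the unadjusted p was under 0.05 for 7 of 15 enzymes of sugar extension (median 0.19), 6 of 18 packaging genes (0.16), 8 of 18 transcription factors (0.14), 2 of 11 GALNT enzymes (0.05), 2 of 13 partners (0.05) and 3 of 4 other mucins (0.23), against 14.1% of all tested genes, whose median was 0.02. The counts of GALNT enzymes and partners are near that share. For roseoflavin in AsPC-1 the counts were 0, 0, 3, 0, 1 and 0 in the same order, against 11.3% of all tested genes, and 6 of 15 for the MAPK output genes.

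The genes whose level over the 8 libraries was most like that of a member were ranked by Pearson's r among 11172 named genes, as a description only, since the contrast of the lines dominates it. For MUC13 they were C1orf116, SLPI and HPGD, each with r of 1.00. SLPI, a secreted protease inhibitor, was at 46.3 and 44.5 TPM without and 60.0 and 58.2 TPM with trametinib in AsPC-1 and listed at 0 in PANC-1. HPGD, which inactivates prostaglandins, was at 29.4 and 31.3 TPM without and 42.1 and 39.8 TPM with it. Both genes were picked for their likeness to MUC13 in these same libraries. Their values with trametinib are therefore no separate evidence on MUC13. For MUC1 they were SLC35A1, PPP1R13B and SLC35D2, each with r of 0.998.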

How the data were processed

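RNA from 8 libraries was measured by sequencing, 1 library for each treatment in each line, prepared with a stranded kit that selects polyadenylated RNA, per the labels' protocols. The authors deposited TPM per gene (a unit scaled by gene length and to the same total in each library), per the file headers. The submitters' processing notes name STAR 2.7.3a, HTSeq 2.0.2 and hg38. The annotation and the handling of reads shared by overlapping genes are not given in the sources used here. Read depth cannot be had from TPM, and no counting interval was computed.

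The 8 members were found by gene name among 62649 genes. A gene was tested if 2 or more libraries reached 1 TPM, which left 19122. Values were taken as log2(TPM + 1), and fold changes of low genes come out too small on that scale. Linear models over all tested genes used limma 3.58.1 (R 4.3.3, eBayes with a trend), with Benjamini-Hochberg adjusted p and a threshold of 0.05. The lines were compared with both compounds as additive terms (4 residual degrees of freedom). Each compound was tested within each line in a model with a compound term per line (2 residual degrees of freedom), and over both lines in the additive model. The residual spread of the per-line model is how far the differences with the compounds depart from adding up, pooled over the lines. It holds no spread between replicates, so its SEs and intervals can be small where the compounds nearly add up. Of the comparisons, only the trametinib difference in AsPC-1 was tried on simulated data. The simulated noise was drawn from the residual spread of the per-line model, so it cannot show whether the p-values hold.

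The members and the gene lists were chosen with earlier results of these data known. Named genes were all members and, in each list, the 3 largest rises and 3 largest falls past the threshold between the lines, with DUSP6 as a check of trametinib. A gene that this rule named is not reported here. Genes most like a member were those with the highest Pearson r, for members that averaged 5 TPM or more. The motifs were chosen after the promoter sequences had been seen. Alternatives were quantile normalization, TPM rescaled without the 37 mitochondrial genes, a pseudocount of 0.1, no filter, a mean of at least 10 TPM, and leaving out each library.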

Additional observations from a re-analysis of the deposited data

Results flagged for a closer look

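The values of MUC1 lay in opposite directions in the lines with each compound, in every matched pair of libraries. Only the signs were compared, and the share of all tested genes with such a pattern was not counted. MUC4, MUC13 and MUC20 each had a listed 0 in PANC-1 and were left out of this comparison. With roseoflavin it was lower in 2 of 2 comparisons in AsPC-1 and higher in 2 of 2 in PANC-1, a difference between lines of 0.40 on the log2(TPM + 1) scale. With trametinib it was higher in 2 of 2 in AsPC-1 and lower in 2 of 2 in PANC-1, a difference of -0.41. The PANC-1 values were small, at 7.11% and 4.25% with roseoflavin and -4.07% and -6.63% with trametinib. Of 9717 genes that averaged 10 TPM or more there, 23.1% had a larger difference with roseoflavin and 9.83% a lower one with trametinib. The test of the difference did not pass by limma in either case (adjusted p 0.336 and 0.493). The 2 comparisons of a compound in a line do not share a library, but both compounds use the same libraries of a line.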

How the results depend on the processing

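Of 290 recomputations of 23 member values, 278 kept their direction and their side of the threshold, 0 crossed it and 12 changed sign. MUC13 with roseoflavin in AsPC-1 was 0.00044 after quantile normalization and 0.0096 after rescaling without mitochondrial genes. Leaving out 1 library moved it from -0.035 to 0.0046, moved its value over both lines from -0.12 to 0.067, and moved MUC5B in AsPC-1 from -0.15 to 0.20 with roseoflavin and from -0.063 to 0.29 with trametinib. MUC5B was negative without the trametinib or combination library (roseoflavin) and without the roseoflavin or combination library (trametinib). The same moved MUC4 in AsPC-1 from 0.0062 to 0.21 with roseoflavin and from 0.15 to 0.35 with trametinib, MUC20 with trametinib from 0.0087 to 0.11, and MUC13 over both lines with trametinib from 0.19 to 0.38. Over the alternatives MUC13 with trametinib in AsPC-1 ran from 0.58 to 0.63 (adjusted p 0.147 to 0.517) and MUC1 from 0.30 to 0.37 with trametinib (0.147 to 0.517) and from -0.36 to -0.29 with roseoflavin (0.161 to 0.591). With a mean of at least 10 TPM, 8388 of 9368 genes were called between the lines against 16027 of 19122, since fewer genes were tested. No compound gave a called gene under any alternative run. There were no replicate numbers to pair libraries by, since each group holds 1 library, and the models compare libraries matched by line and by the other compound. The depth is unknown, so levels near 0 cannot be told from absence.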

Other observations

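Each line held transcripts of a few genes better known from other cells. LYZ, the lysozyme of myeloid and secretory cells, was at 1856 to 1970 TPM in AsPC-1 and 0.344 TPM or less in PANC-1. Of 6 fibroblast markers, LUM was at 103 and 111 TPM without trametinib and 145 and 146 TPM with it in AsPC-1, and at 0.039 TPM or less in PANC-1. In the other direction COL1A1 was at 0.121 TPM or less in AsPC-1 and 98.9 to 107 TPM in PANC-1, COL3A1 at 0.032 TPM or less and 1.69 to 1.98 TPM, and PDGFRB at 0.122 TPM or less and 0.740 to 0.892 TPM. DCN was at 0.083 TPM or less in AsPC-1 and listed at 0 in PANC-1, and COL1A2 did not exceed 0.027 TPM in any library. LYZ and LUM were picked out after their values had been seen.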
